A study of Mus musculus with 5 samples.

Results

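The cells described here are border-type macrophages with high MHC class II. They were sorted from the brain as CD45highCD11bhigh cells and chosen by their own transcripts. A cell was a member if, per 10000 of its unique molecular identifiers (UMIs, the tags that count each captured mRNA once), 8 border macrophage genes (Mrc1, Stab1, Pf4, Cbr2, Dab2, Lyve1, Cd163 and Cd209f) summed to at least 40, 6 microglia genes (P2ry12, Tmem119, Sparc, Olfml3, Selplg and Gpr34) summed to less than 80, and 4 MHC class II genes (Cd74, H2-Aa, H2-Ab1 and H2-Eb1) summed to at least 150. Of 825 cells with at least 500 UMIs, 50 met all 3 limits, and they are called high-MHC border cells below. The 18 genes of the gate are described without a test, because they chose the cells. All cells were labelled as anti-PD-L1-treated DM-hTAU mice of 9 months. DM-hTAU mice carry human tau with 2 mutations linked to frontotemporal dementia, driven by the natural tau promoter. No other treatment or genotype is labelled, so these cells were compared only with other cells of the same libraries. The study's own text also speaks of sorting IgG2b-treated mice, which no label marks, so the treatment of a given cell is known from its library label alone. The labelled tissue is brain, as in the study's methods, although the labels' preparation text speaks of thymus and gut.

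Border-associated macrophages line the meninges, the perivascular spaces and the choroid plexus. They share Mrc1, the mannose receptor CD206, and Stab1, a scavenger receptor, and are known to differ in MHC class II. MHC class II molecules display peptides from taken-up material to CD4+ T cells. H2-Aa pairs with H2-Ab1, H2-Eb1 encodes the beta chain of a further class II molecule, and Cd74 is the invariant chain that occupies the groove until H2-DM, made of H2-DMa and H2-DMb1, exchanges its remnant for peptide. The class II genes are switched on together by the coactivator Ciita through the shared X and Y boxes of their promoters. These promoters are shown because class II transcripts define the cells. Sequences are from RefSeq (GRCm38.p6), read 5′ to 3′ on the strand of the gene, and cover the 150 bases before its annotated start. Capitals mark the searched letters AACNGATG (part of the X box) and GATTGG (core of the Y box) or their reverse complements.
H2-Aa (chr17:34287824-34287973, minus strand): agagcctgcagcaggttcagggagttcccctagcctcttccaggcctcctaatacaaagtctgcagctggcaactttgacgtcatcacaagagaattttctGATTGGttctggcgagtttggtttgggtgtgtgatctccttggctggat
H2-Eb1 (chr17:34305717-34305866, plus strand): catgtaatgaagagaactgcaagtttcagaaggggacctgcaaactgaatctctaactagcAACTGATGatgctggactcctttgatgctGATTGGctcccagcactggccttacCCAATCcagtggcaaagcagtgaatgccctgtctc

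The H2-Eb1 promoter held AACNGATG at -89 to -82 and GATTGG at -60 to -55, counted from the start, with a further reverse complement of GATTGG at -35 to -30. The H2-Aa promoter held GATTGG at -49 to -44. Of 32851 RefSeq promoter windows of 300 bases, 2.32% held AACNGATG on either strand, 16.1% held GATTGG and 0.335% held both. H2-DMb1, which the gate did not use, held both, at -92 to -85 and -62 to -57, and so did H2-DMb2. H2-Oa and H2-Ob, also outside the gate, held GATTGG alone. H2-DMa had 2 windows, of which the first held neither and the second held GATTGG at -199 to -194. Of the border genes with a window, Cd163 held GATTGG and none of Mrc1, Stab1, Pf4, Cbr2, Dab2 and Cd209f held either. Windows were found for 18 of 25 genes looked for, and not for Cd74, H2-Ab1, Lyve1, Ciita, C4b, Maf and Ctsb. A match of letters is a description of the sequence and does not show that a factor binds there.

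The cells were profiled by MARS-seq, in which each cell is sorted into its own well and the 3′ ends of its mRNAs are counted. The 5 libraries, AB5863, AB5864, AB5865, AB5867 and AB5876, were plates of 384 wells with 128201 to 549824 UMIs each, and all belonged to 1 sequencing batch. Empty wells, 20 in all, had a median of 7.5 UMIs and together held 2 UMIs of the border genes of the gate and 1 of its class II genes. No source used here ties wells to mice, so the p-values rest on a spread between libraries that may be technical. Intervals given below are 95% intervals and cover counting error only.

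High-MHC border cells were found in 4 of the 5 libraries, and 48 of the 50 came from AB5865 and AB5876. Library AB5865 had 23 of 285 kept cells (8.07%, Clopper-Pearson interval 5.18 to 11.9%) and AB5876 had 25 of 314 (7.96%, 5.22 to 11.5%). Library AB5863 had 1 of 68 (1.47%, 0.0372 to 7.92%) and AB5864 had 1 of 87 (1.15%, 0.0291 to 6.24%). AB5867 had 0 of 71 cells (0%, 0 to 5.06%), and counting a 0 as at most 3 cells allows a share of up to 4.23%. The mean share was 3.73% ± 3.95 (SD, n = 5 libraries). The libraries with many of these cells were also the deepest, with a median of 1168 and 1267.5 UMIs per kept cell against 651 to 759 in the others, and the part of depth in the share was not tested. Within the 95 border cells that met the border and microglia limits, the high-MHC share was 52.6% in all and 58.1% in AB5876, and AB5865 had 23 cells on each side of the class II limit. Of the 48 border cells at or below their median of 900 UMIs, 28 were high in class II, against 22 of the 47 deeper ones.

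**Figure D1:**
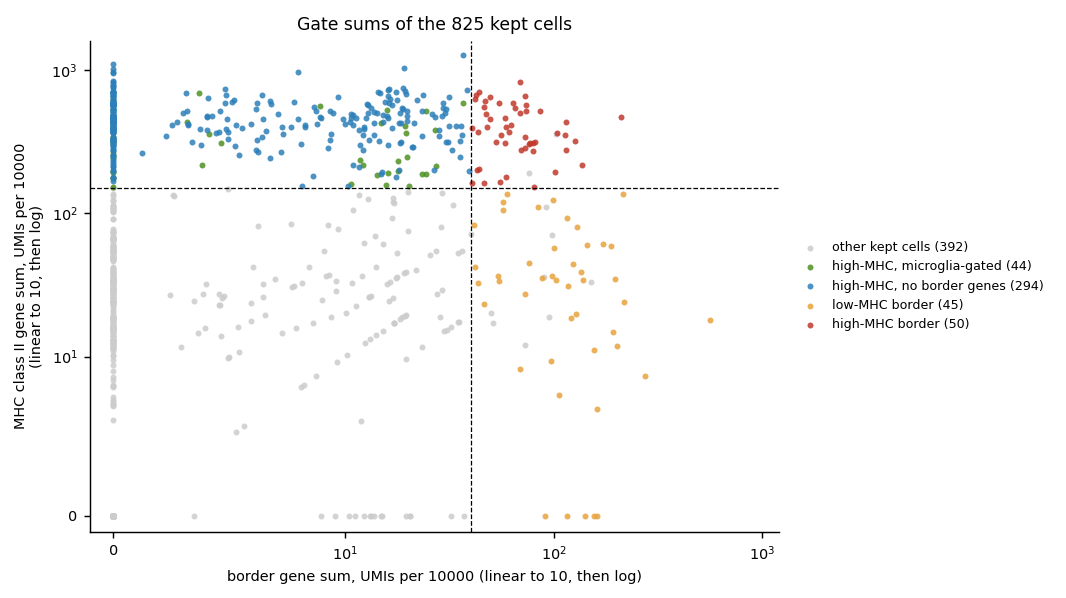
Sum of the 8 border genes (horizontal axis) and of the 4 MHC class II genes (vertical axis) in each of the 825 kept cells, in UMIs per 10000 on axes that are linear to 10 and then logarithmic, with dashed lines at 40 and 150. The 50 high-MHC border cells (red) lie at border sums of 40.6 to 210.3, and most of the other cells above 150 on the vertical axis are the 294 cells without border genes (blue).

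Class II transcripts were a large part of what these cells held, 3.92% of their UMIs. Their class II sum had a median of 367 UMIs per 10000 (151 to 818), with 397 in AB5865 and 353 in AB5876. Cd74, H2-Aa and H2-Ab1 were each detected in all 50 cells and H2-Eb1 in 45. Cd74 stood at 166 per 10000 in AB5865 and 127 in AB5876. H2-Aa stood at 102 and 98.9, H2-Ab1 at 67.6 and 72.3, and H2-Eb1 at 73.7 and 78.7, in the same order. The libraries lay close together for all but Cd74, which was higher in AB5865. The border cells that missed the class II limit, called low-MHC border cells (45 cells), had a class II sum of 34.1 per 10000 at the median (0 to 137), and 5 of them had no class II UMI at all. The members nearest the limit had sums of 151, 163 and 163, and the border cells just under it 137, 136 and 124.

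The border limit was met on fewer UMIs. The border sum of the high-MHC border cells had a median of 63.2 UMIs per 10000 (40.6 to 210.3), which was 5.5 UMIs per cell at the median and 3 to 32 in all. With 3 UMIs 11 cells met the limit, and with 4 UMIs 6 cells. The sum was under 80 in 39 of the 50, and in the low-MHC border cells its median was 116 (41.5 to 562). Mrc1 was detected in 42 cells, 23 of them with Stab1 as well, and 8 cells had no Mrc1 UMI, of which 4 had Stab1. Mrc1 was the only border gene found in 5 cells. The lowest members had border sums of 40.6, 40.7 and 42.2, and the high-MHC cells just under the limit 39.4, 38.2 and 36.6.

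Mrc1 stood at 28.6 per 10000 in AB5865 and 24.6 in AB5876 in the high-MHC border cells, and at 29.6 and 34.9 in the low-MHC border cells. Stab1 stood at 6.50 and 15.7 against 34.8 and 13.6, so the classes were far apart in AB5865 and close in AB5876. Dab2, an endocytic adaptor, stood at 6.93 and 8.88 against 19.6 and 12.2. Cbr2, a carbonyl reductase, stood at 5.20 and 2.83 against 8.4 and 9.96, and Cd209f, a C-type lectin, at 0.867 and 0.808 against 9.20 and 6.34, both lower in both libraries. The chemokine Pf4 stood at 12.6 and 7.27 against 10.4 and 12.2, and Cd163, the haemoglobin scavenger receptor, at 9.97 and 6.87 against 8.4 and 7.70. Lyve1, a hyaluronan receptor, stood at 6.07 and 0.404 against 6.40 and 9.96. In the high-MHC cells 11 of its 15 UMIs, 73.3%, came from 1 cell, and 14 of the 47 UMIs of Pf4 (29.8%) also came from 1 cell. Pf4 or Cbr2 was found in 26 of the 50 cells, Cd163 in 17, and Lyve1 or Cd209f in 7. These genes and the limits on their sum chose the cells, and no test was made of them.

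**Figure D2:**
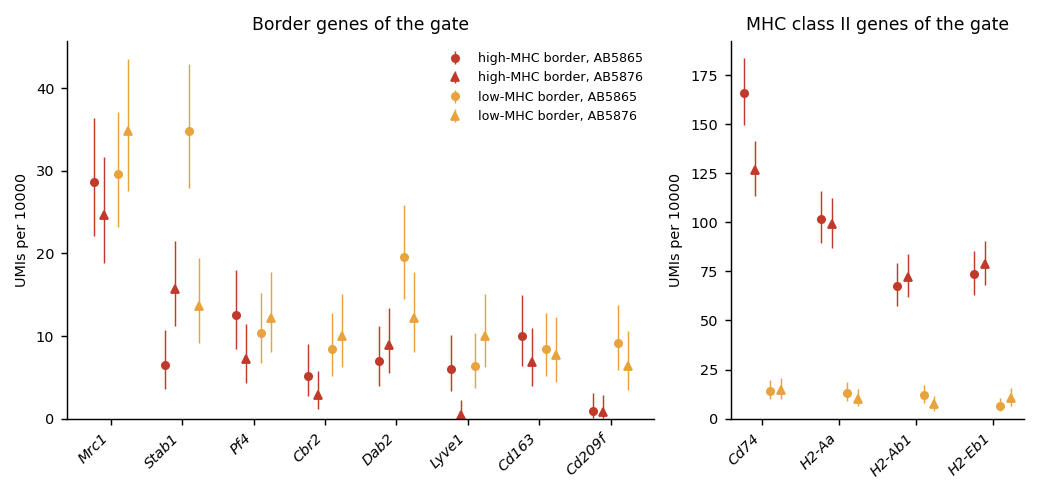
UMIs per 10000 (vertical axes) of the border genes and the class II genes of the gate, in the high-MHC (red) and low-MHC (orange) border cells of AB5865 (circles) and AB5876 (triangles), with 95% Poisson intervals as bars. Mrc1 lies between 24.6 and 34.9 in all 4 sums, while Cd209f lies below 1 in the high-MHC cells and at 6.34 and 9.20 in the low-MHC cells.

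The microglia genes of the gate summed to a median of 10.04 UMIs per 10000 in the high-MHC border cells, and 18 of the 50 had none. P2ry12 was found in 18 cells (5.30 per 10000) and Tmem119 in 4 (1.43). The members nearest the microglia limit had sums of 73.5, 73.1 and 53.5, and the 2 cells that met the border and class II limits but missed this one had 82.9 and 123. The members outside the well-filled libraries were thin. The cell of AB5863 had 4 Mrc1, 14 Cd74 and 12 H2-Eb1 UMIs of 680 in all. The cell of AB5864 had 3 Stab1, 5 H2-Ab1, 3 H2-Aa and 1 Cd74 UMIs of 544, and none of Mrc1.

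Of the marker genes given for these cells, Mrc1, Stab1, Cd74 and H2-Aa were part of the gate, and F13a1 and C4b were not. F13a1, the A chain of coagulation factor XIII, was found in 18 of the 50 cells and C4b, a complement component, in 16, with 27 cells holding at least 1 of them and 7 both. Apoe, the lipid carrier apolipoprotein E, stood at 218 per 10000, ahead of Cd74 and H2-Aa and, with Gm-numbered, mitochondrial and ribosomal protein genes left aside, of all other genes. The lysozyme Lyz2 followed at 81.5, with the microfilament genes Actb at 72.2 and Tmsb4x at 69.9 and the class I light chain B2m at 61.1. The protease inhibitor Cst3 stood at 56.7, the protease Ctss, which trims the invariant chain, at 49.9, and Clptm1 at 41.8. The complement genes C1qc, C1qb and C1qa stood at 46.7, 45.5 and 38.9. Of all UMIs of these cells 11.7% were mitochondrial, 5.22% were of ribosomal protein genes and 4.58% and 2.89% were of Gm42418 and Gm26917.

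Markers of other cell types were few in the high-MHC border cells. The 7 astrocyte, 7 neuron, 5 erythrocyte and 8 mast cell or basophil genes had 0 UMIs. The 11 T or NK cell genes had 1 UMI, of Il2rb, the 7 oligodendrocyte genes 2, of Mbp, and the 10 endothelial or mural genes 2, of Flt1. The 10 B cell genes had 14 UMIs, all of Ighm, with Cd79a at 0. The 10 neutrophil genes summed to 4.77 per 10000 in AB5865 and 12.5 in AB5876, against 24.5 and 56.8 over all kept cells of those libraries. Of the 18 dendritic cell genes 9 were at 0, among them Flt3, Itgax, Zbtb46, Xcr1 and Ccr7, and the sum was 8.67 and 4.85 per 10000. The 10 monocyte genes summed to 6.93 and 11.7, with Cd14, the lipopolysaccharide coreceptor, in 18 cells.

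Genes outside the gate were compared in AB5865 and AB5876, the libraries with at least 5 cells in each class. UMIs were summed per library and class and tested in edgeR (quasi-likelihood). Both sums of a plate were paired by a library term, with p-values adjusted by Benjamini-Hochberg over all genes tested. The 48 high-MHC border cells were set against the 41 low-MHC border cells, against 234 high-MHC cells with a border sum under 40 and a microglia sum under 80 (called cells without border genes), and against 26 high-MHC cells with a border sum under 40 and a microglia sum of at least 80 (called microglia-gated cells). The comparisons share the same 48 cells. Levels, their ratios and the counts of genes higher or lower in both libraries rest on all UMIs, gate genes included. Fold changes rest on the UMIs outside the gate with edgeR's scaling between sums (TMM), so they can differ from the ratio of levels. The classes were cut from the same cells that were then compared, which the p-values do not allow for.

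The first comparison asks what differs, besides the class II genes of the gate, between border cells with much and with little class II. Of 294 genes tested, 0 were higher (0%) and 0 lower (0%) in the high-MHC cells at an adjusted p under 0.05 in edgeR. Without adjustment, 10 had p under 0.05 and were higher (3.40%) and 19 were lower (6.46%), and DESeq2 called 0 and 0, or 2 and 6 without adjustment. The smallest adjusted p was 0.472. No gene passed, and the values below are given without a call.

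H2-DMb1 (chr17:34153072-34160230, GRCm38), the beta chain of the peptide exchange factor, stood at 4.77 per 10000 in AB5865 and 8.88 in AB5876 in the high-MHC border cells. It stood at 0.40 and 1.81 in the low-MHC border cells, lower in both libraries. The log2 fold change was 2.44 ± 0.69 (SE, adjusted p = 0.472 in edgeR), from 33 UMIs against 5, a ratio of 6.49 with a counting interval of 2.52 to 21.3. The alpha chain H2-DMa stood at 11.3 and 9.29 against 8.4 and 4.08, a log2 fold change of 0.58 ± 0.30 (SE, adjusted p = 0.566). H2-DMa or H2-DMb1 was found in 32 of the 50 high-MHC cells and both in 13. Ciita, the class II coactivator, had too few UMIs to be tested: 14 in 8 high-MHC cells, or 3.90 and 2.02 per 10000, against 0.800 and 0.453. Reads of H2-DMb1 can be shared with its near copy H2-DMb2, which had 0.408 per 10000 in the high-MHC cells. Of the 7 class II genes outside the gate, 2 were tested, and both had higher levels in both libraries, as did 40.5% of all genes tested. Their median log2 fold change was 1.51, against -0.03 over all genes tested. The classes were cut on other class II genes, so the direction of this list is not independent of the gate. With 5 UMIs in the low-MHC border cells, H2-DMb1 passed the count filter through the high-MHC border cells. H2-DMa turned to -0.34 at a minimum of 1000 UMIs per cell and to -0.0907 at a border limit of 80. Together the 7 genes summed to 20.8 and 22.2 per 10000 in the high-MHC cells and 9.60 and 6.34 in the low-MHC cells.

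Other genes of antigen handling and of the macrophage lysosome lay in different directions. Psmb8, a subunit of the immunoproteasome that cuts peptides for class I, stood at 6.93 and 6.06 per 10000 against 2.00 and 0.453, a log2 fold change of 2.24 ± 0.73 (SE). Lyz2 (chr10:117277331-117282321) stood at 93.2 and 71.5 against 51.2 and 37.1, a log2 fold change of 0.74 ± 0.14 (SE). The high-MHC cells lay above the low-MHC cells in both libraries for both genes, and both had an adjusted p of 0.472 in edgeR. Ctss stood at 51.1 and 48.5 against 35.2 and 34.9, a log2 fold change of 0.34 ± 0.16 (SE, adjusted p = 0.551 in edgeR). The perforin-like gene Mpeg1 stood at 21.7 and 18.2 against 12 and 6.34. The lectin Mgl2 stood at 6.93 and 8.48 against 1.20 and 3.17, and the glycoprotein gene Cd52 at 8.67 and 10.9 against 4.80 and 4.53. All lay higher in both libraries, as did 40.5% of all genes tested, and none passed. The log2 fold change was 0.98 ± 0.26 (SE) for Mpeg1, 1.66 (0.51) for Mgl2 and 0.88 (0.30) for Cd52.

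Ctsd, the lysosomal protease cathepsin D, stood at 9.10 and 17.4 per 10000 in the high-MHC border cells against 34.8 and 25.4 in the low-MHC border cells, a log2 fold change of -1.36 ± 0.34 (SE, adjusted p = 0.472 in edgeR). Rnase4 stood at 7.37 and 4.04 against 15.2 and 9.51, and Fcrls, an Fc receptor-like gene of microglia, at 6.93 and 7.27 against 17.2 and 11.3. The high-affinity Fc receptor Fcgr1 stood at 4.33 and 4.85 against 9.20 and 8.6. These 4 genes lay lower in both libraries, as did 22.8% of all genes tested. The log2 fold change was -1.26 (standard error 0.28) for Rnase4, -1.15 (0.26) for Fcrls and -1.12 (0.30) for Fcgr1.

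Border macrophage genes that the gate did not use were set against the low-MHC border cells next. Within libraries, Apoe and C4b lay higher in 1 and lower in the other, F13a1 lay lower in both and Maf higher in both. Apoe stood at 211 and 227 per 10000 against 201 and 233, a log2 fold change of -0.16 ± 0.20 (SE, adjusted p = 0.804 in edgeR). The transcription factor Maf stood at 18.2 and 16.6 against 15.2 and 15.4, a log2 fold change of 0.02 ± 0.24 (SE, adjusted p = 0.997). F13a1 stood at 8.67 and 6.87 against 9.20 and 8.15, and C4b at 8.23 and 4.85 against 7.60 and 7.70. Their log2 fold changes were -0.32 (standard error 0.29, adjusted p = 0.686) and -0.39 (standard error 0.38, adjusted p = 0.700), and the counting intervals of the ratio were 0.554 to 1.42 and 0.507 to 1.41. Reads of C4b can be shared with its near copy C4a. Of 32 border macrophage genes outside the gate 14 were tested, with 1 higher and 1 lower without adjustment, where 3.40% and 6.46% of all genes tested were, and a median log2 fold change of -0.27. Together they summed to 323 and 328 per 10000 against 320.5 and 349.6, with Apoe the largest part in both classes.

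The calls of this comparison changed with the settings. Some settings that kept the microglia limit of the low-MHC cells gave calls too. With that limit dropped, 48 low-MHC border cells entered, 324 genes were tested, and 5 were higher and 16 lower in the high-MHC cells at an adjusted p under 0.05 in edgeR. The higher genes were Lyz2 (adjusted p = 4.00e-09), Mgl2 (0.0151), H2-DMb1 (0.0298), Mpeg1 (0.0357) and the ribosomal protein gene Rps14 (0.0474). Among the lower genes were Ctsd (3.27e-08), Cst3 (5.15e-05), Gm26917 (1.53e-04), Mir6236 (1.76e-04) and Gm42418 (0.00100). The mitochondrial genes mt-Nd4 and mt-Cytb, Malat1, Rnase4 and Fcrls were also among them. The cells that the limit had kept out carry microglia genes by its definition, and their part in these calls was not tested. Over 16 settings, Ctsd was called lower in 8, Gm26917 and Mir6236 in 7 each and Gm42418 in 6. Lyz2 was called higher in 5. H2-DMb1 was called higher in 3 of the 14 settings that tested it.

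**Figure D3:**
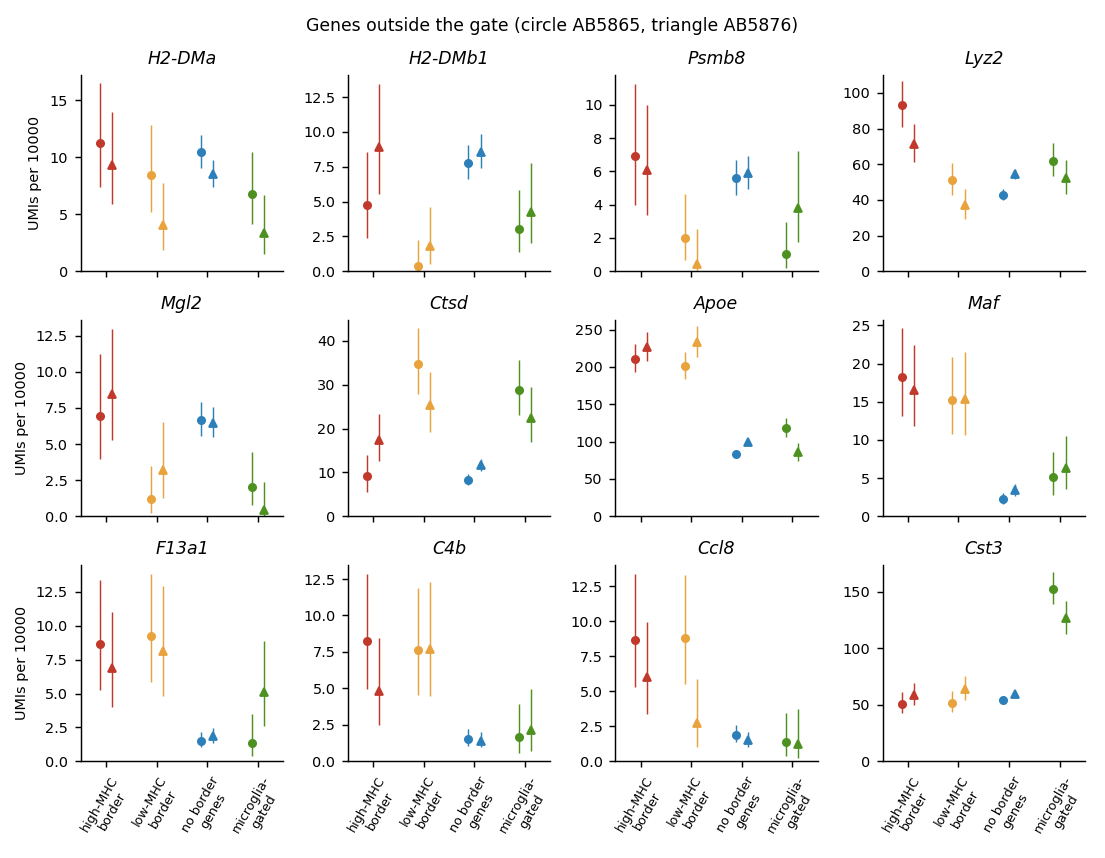
UMIs per 10000 (vertical axes) of 12 genes outside the gate in the 4 classes of cells of AB5865 (circles) and AB5876 (triangles), with 95% Poisson intervals as bars. H2-DMb1 lies at 4.77 and 8.88 in the high-MHC border cells and at 0.40 and 1.81 in the low-MHC border cells, while Apoe lies at 201 to 233 in both border classes and at 83.6 to 119 in the others.

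The second comparison asks what sets the high-MHC border cells apart from other high-MHC cells. These others had a class II sum of 448 per 10000 at the median, 131 of the 294 had no border UMI and 40 had 3 or more. Of 1761 genes tested, 4 were higher (0.227%) in the high-MHC border cells at an adjusted p under 0.05 in edgeR and 0 lower, with 163 lower (9.26%) and 125 higher (7.10%) at an unadjusted p under 0.05. DESeq2 called 7 higher and 0 lower. Apoe (chr7:19696109-19699188) stood at 211 and 227 per 10000 against 83.6 and 99.5 and rose by a log2 fold change of 1.20 ± 0.10 (SE, adjusted p = 0.00866 in edgeR). Selenop (chr15:3268547-3280508), a carrier of selenium, stood at 33.4 and 37.2 against 8.08 and 12.2 and rose by 1.75 (standard error 0.18, adjusted p = 0.0168). Maf (chr8:115682942-115707794) stood at 18.2 and 16.6 against 2.25 and 3.39 and rose by 2.56 (standard error 0.27, adjusted p = 0.0168). Ctsb (chr14:63122462-63145923), the lysosomal protease cathepsin B, stood at 38.1 and 38.0 against 17.2 and 16.3 and rose by 1.12 (standard error 0.15, adjusted p = 0.0458). All 4 genes lay higher in both libraries, as did 27.5% of all genes tested. Apoe and Selenop were called in 14 of 15 settings, Maf in 13 of the 14 that tested it and Ctsb in 11 of 15. At a border limit of 80, which 11 cells met, none of the 4 was called. The number of genes called ranged from 3 to 74 higher and from 0 to 158 lower over these settings, and without AB5865 or without AB5876 only 1 library remained and no test could be made.

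Border macrophage genes outside the gate lay higher together. Of the 32, 21 were tested and 2 rose (Apoe and Maf), as did 0.227% of all genes tested. At an unadjusted p under 0.05 in edgeR 10 were higher, as were 7.10% of all genes tested. In both libraries 18 of 21 lay higher, against 27.5% of all genes tested. Their median log2 fold change was 1.56, against -0.11 over all genes tested. The cells were gated on other border genes, so the direction of this list is not independent of the gate. F13a1 stood at 8.67 and 6.87 per 10000 against 1.52 and 1.84, a log2 fold change of 2.13 ± 0.39 (SE, adjusted p = 0.0875 in edgeR). C4b stood at 8.23 and 4.85 against 1.57 and 1.42, a log2 fold change of 2.03 ± 0.43 (SE, adjusted p = 0.0931). The chemokine Ccl8 stood at 8.67 and 6.06 against 1.91 and 1.51, and the folate receptor Folr2 at 4.33 and 1.21 against 0.196 and 0.125. Their log2 fold changes were 2.03 (standard error 0.38) and 3.85 (0.64), each with an adjusted p of 0.0875 in edgeR. Folr2, with 13 UMIs against 7, passed the count filter through the high-MHC border cells.

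C1qa stood at 37.7 and 40.8 per 10000 against 19.1 and 17.9, a log2 fold change of 1.02 ± 0.15 (SE, adjusted p = 0.0554 in edgeR). The growth factor receptor Csf1r, needed by macrophages and microglia, stood at 32.1 and 38.0 against 18 and 14.9, a log2 fold change of 1.03 ± 0.18 (SE, adjusted p = 0.0875). Neither passed, and both genes lay higher in both libraries, as did 27.5% of all genes tested. H2-DMb1 stood at 4.77 and 8.88 against 7.79 and 8.57, a log2 fold change of -0.33 ± 0.29 (SE, adjusted p = 0.670). The 7 class II genes outside the gate summed to 20.8 and 22.2 per 10000 in the high-MHC border cells and 23.3 and 21.9 in the cells without border genes. Of these 7, 5 were tested, and 0 passed in edgeR, adjusted or not.

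The sums of the dendritic cell and monocyte lists stood far lower in the high-MHC border cells, though no gene passed. The 18 dendritic cell genes summed to 8.67 and 4.85 per 10000 against 41.1 and 40.3. The 6 tested were Cd209a, Crip1, Lsp1, Napsa, S100a4 and Vim. All 6 were lower at an unadjusted p under 0.05 in edgeR, as were 9.26% of all genes tested. They also lay lower in both libraries, as did 34.1% of all genes tested, and their median log2 fold change was -2.74. Genes scarce in the high-MHC border cells, such as S100a4 and Cd209a, passed the count filter through the other class. These counts, and those of the monocyte genes below, are therefore not independent of the filter. The intermediate filament gene Vim stood at 3.03 and 1.62 against 9.35 and 11.5, a log2 fold change of -2.23 ± 0.38 (SE, adjusted p = 0.0875 in edgeR). The lectin Cd209a had 3 UMIs in the high-MHC border cells, 0.433 and 0.808 per 10000 against 5.34 and 5.56, a ratio of 0.115 with a counting interval of 0.0235 to 0.340. The calcium-binding gene S100a4 had 1 UMI, against 4.75 and 4.72 per 10000, a ratio of 0.0441 with an interval of 0.00111 to 0.249. The 10 monocyte genes summed to 6.93 and 11.7 against 24.1 and 27.3, with 4 of 6 tested lower at an unadjusted p under 0.05, against 9.26% of all genes tested, and a median log2 fold change of -2.42. Of these 6, 5 lay lower in both libraries and Cd14 lay higher in both, at 4.77 and 3.63 against 2.60 and 3.55. Ccr2, the chemokine receptor of recruited monocytes, stood at 0.867 and 3.23 against 9.70 and 9.32, a log2 fold change of -2.25 ± 0.44 (SE, adjusted p = 0.0931 in edgeR). Ccr2 or Cd209a was found in 11 of the 50 high-MHC border cells.

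**Figure D4:**
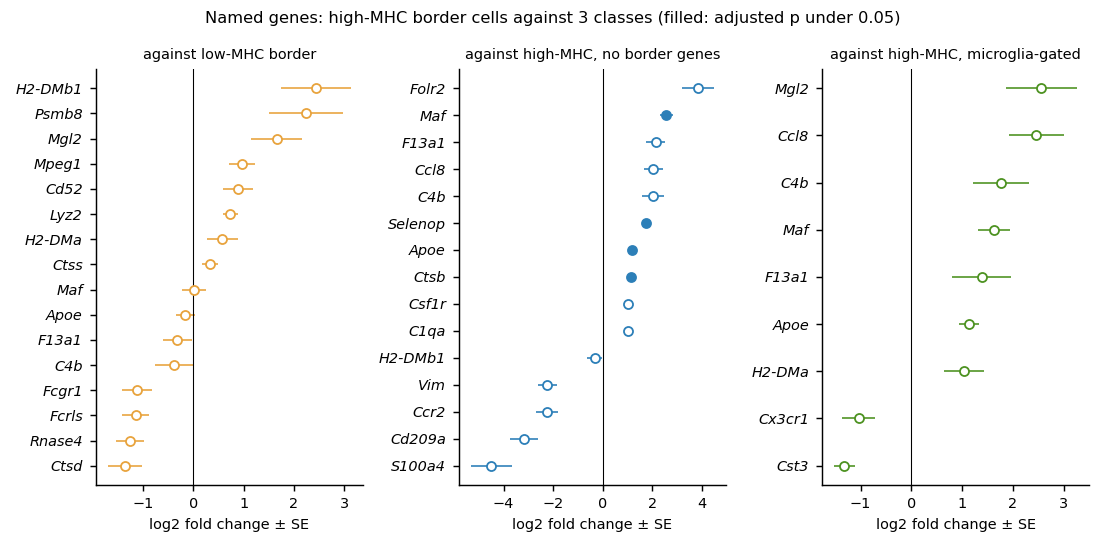
Log2 fold change (horizontal axes) of the named genes in the high-MHC border cells against each of the 3 other classes, with standard errors as bars and filled points for an adjusted p under 0.05 in edgeR. The filled points are Maf, Selenop, Apoe and Ctsb against the cells without border genes, at 2.56, 1.75, 1.20 and 1.12.

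The third comparison was with high-MHC cells that carried microglia genes. Of 307 genes tested, 0 were higher (0%) and 0 lower (0%) in the high-MHC border cells at an adjusted p under 0.05 in edgeR. At an unadjusted p under 0.05, 15 were higher (4.89%) and 20 lower (6.51%), and DESeq2 called 1 higher and 2 lower. Apoe stood at 211 and 227 per 10000 against 119 and 86.0, a log2 fold change of 1.13 ± 0.20 (SE, adjusted p = 0.163 in edgeR). Maf stood at 18.2 and 16.6 against 5.09 and 6.36, a log2 fold change of 1.63 ± 0.32 (SE, adjusted p = 0.171). Ccl8 stood at 8.67 and 6.06 against 1.36 and 1.27, and Mgl2 at 6.93 and 8.48 against 2.04 and 0.424. These 4 genes lay higher in both libraries, as did 29.0% of all genes tested. The log2 fold change was 2.46 ± 0.54 (SE, adjusted p = 0.209 in edgeR) for Ccl8 and 2.56 (standard error 0.70, adjusted p = 0.310) for Mgl2. F13a1 stood at 8.67 and 6.87 against 1.36 and 5.08, a log2 fold change of 1.38 ± 0.58 (SE, adjusted p = 0.426). C4b stood at 8.23 and 4.85 against 1.70 and 2.12, a log2 fold change of 1.77 ± 0.55 (SE, adjusted p = 0.364). Of the 32 border genes outside the gate 6 were tested, and all 6 lay higher in both libraries, as did 29.0% of all genes tested. The classes were gated on other border genes, so the direction of this list is not independent of the gate. In the microglia-gated cells Ccl8 and Mgl2 had 7 UMIs each and C4b had 10. These genes passed the count filter through the high-MHC border cells, so the count is not independent of the filter either.

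Cst3 and genes of microglia outside the gate lay lower in the high-MHC border cells than in the microglia-gated cells. The microglia-gated cells were chosen by other microglia genes, so the direction of the microglia genes here is not independent of the gate. Cst3 stood at 51.1 and 58.6 per 10000 against 153 and 126, a log2 fold change of -1.32 ± 0.21 (SE, adjusted p = 0.163 in edgeR). The fractalkine receptor Cx3cr1 stood at 14.3 and 12.5 against 33.6 and 22.9, a log2 fold change of -1.04 ± 0.32 (SE, adjusted p = 0.364). Of 16 microglia genes outside the gate 9 were tested, and 7 lay lower in both libraries, as did 29.0% of all genes tested. At an unadjusted p under 0.05 in edgeR 3 were lower, against 6.51% of all genes tested. Together they summed to 112 and 113 per 10000 against 216 and 177. In the cells without border genes they summed to 78.6 and 73.6, and against these cells 10 of the 12 tested lay higher in both libraries, as did 27.5% of all genes tested. H2-DMa stood at 11.3 and 9.29 against 6.79 and 3.39 in the microglia-gated cells, a log2 fold change of 1.04 ± 0.40 (SE, adjusted p = 0.417). Apoe was called in 8 of 14 settings and Cst3 in 7.

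**Figure D5:**
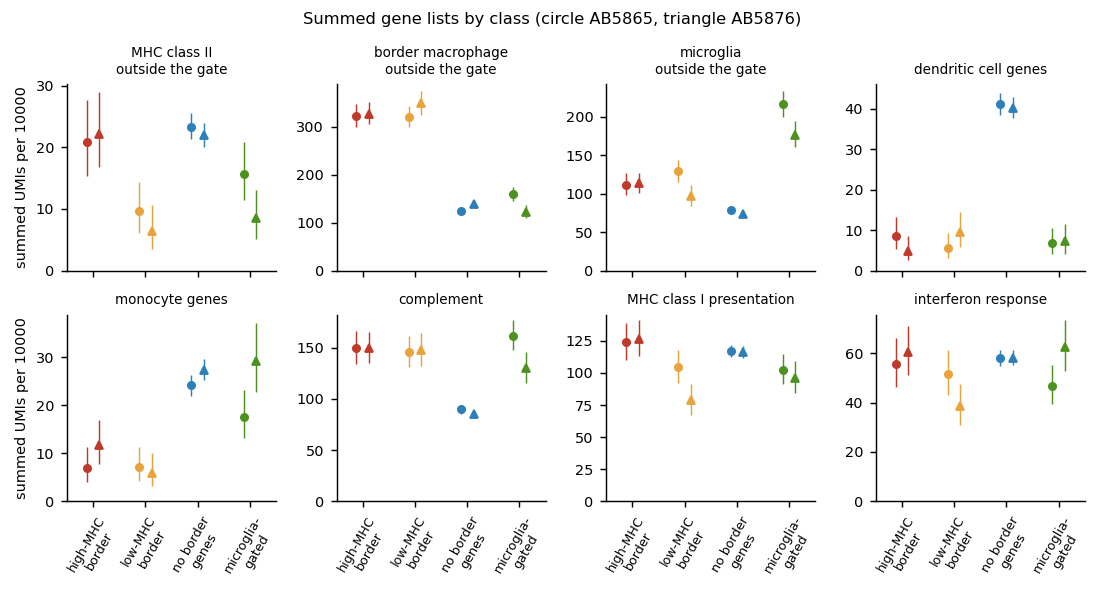
Summed UMIs per 10000 (vertical axes) of 8 gene lists in the 4 classes of cells of AB5865 (circles) and AB5876 (triangles), with 95% Poisson intervals as bars. The border list lies at 320.5 to 349.6 in both border classes and at 122 to 159.8 in the others, and the dendritic cell list lies at 40.3 and 41.1 in the cells without border genes and below 10 in the rest. Over both libraries together, Apoe alone gives 219 and 216 of the border list in the border classes and 92.2 and 104 in the others.

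Further gene groups are given by their sums. The 13 complement genes summed to 149.5 and 149.8 per 10000 in the high-MHC border cells of AB5865 and AB5876, 146 and 148 in the low-MHC border cells and 89.8 and 85.7 in the cells without border genes. The 10 genes of class I presentation, whose H2 members can share reads, summed to 124 and 126, 104 and 78.8, and 117 and 116, in the same order. Against the low-MHC border cells, 5 of the 6 class I genes tested lay higher in both libraries, with Psmb8 among them, where 40.5% of all genes tested did so, and their median log2 fold change was 0.45. The 12 genes of antigen processing and costimulation summed to 115 and 127 against 139 and 96.5 in the low-MHC border cells, so the order of the classes turned between the libraries. Against the cells without border genes 1 of 7 tested rose, Ctsb, where 0.227% of all genes tested rose. The costimulator Cd86 was found in 9 of the 50 high-MHC border cells.

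The 24 interferon response genes summed to 55.5 and 60.6 per 10000 in the high-MHC border cells, 51.6 and 38.5 in the low-MHC border cells and 58.0 and 58.1 in the cells without border genes. The interferon-induced GTPase Irgm1 stood at 5.20 and 5.25 in the high-MHC and 3.60 and 1.36 in the low-MHC border cells. Of the 6 interferon genes tested against the low-MHC border cells, 0 passed in edgeR, adjusted or not, and 3 lay higher in both libraries, near the 40.5% of all genes tested. The 18 scavenger and uptake receptors summed to 85.4 and 65.4 per 10000 against 88.8 and 59.3 in the low-MHC border cells. Among them the sialic acid lectin Siglec1 stood at 8.67 and 2.83 against 7.20 and 2.26. The 10 iron and haem genes, led by the ferritin chains Fth1 and Ftl1, summed to 63.3 and 70.7 against 53.6 and 64.3. All 3 of the iron genes tested lay higher in both libraries, against 40.5% of all genes tested, and 0 passed in edgeR, adjusted or not.

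The 23 chemokines and cytokines summed to 33.8 and 46.0 per 10000 in the high-MHC and 64.4 and 32.6 in the low-MHC border cells. The largest of them, Ccl12, a monocyte chemoattractant, turned in the same way, at 13.4 and 18.6 against 32.4 and 9.06. The 11 checkpoint genes summed to 11.7 and 18.6 against 16.4 and 19.0. Of them Sirpa, the inhibitory receptor for CD47, was found in 16 of the 50 high-MHC border cells and Vsir, the checkpoint VISTA, in 11. The 20 disease-associated microglia genes summed to 349.8 and 361 against 371 and 358, with Apoe the largest part in both. The 16 macrophage transcription factors summed to 40.7 and 40.0 against 35.6 and 44.8, led by Maf. The 10 cell cycle genes gave 25 UMIs in all 50 cells and 6 of them were at 0. The 16 immediate early and dissociation genes, which tissue digestion is known to induce, summed to 50.7 and 63.0 in the high-MHC border cells and 54.0 and 48.5 in the low-MHC border cells. In the cells without border genes they summed to 34.8 and 31.9, and 3 of the 11 tested were higher in the high-MHC border cells at an unadjusted p under 0.05, against 7.10% of all genes tested. Fos stood at 12.1 and 13.3 against 7.15 and 6.56 in those cells, and the part of tissue handling in the second comparison was not tested.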

How the data were processed

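Per the labels, the 5 libraries form 1 group, DM-hTAU mice given the anti-PD-L1 antibody. The authors deposited UMI counts for each gene in each well, not normalized. Their processing notes name bcl2fastq 2.15.0.4 and mm10, and no source used here names the aligner. Doublets were excluded in the authors' sort and no doublet caller was run. ERCC spike-ins were left out, single-cell wells with at least 500 UMIs were kept, and levels are UMIs per 10000. Libraries held 134201, 146078, 438601, 128201 and 549824 UMIs (AB5863, AB5864, AB5865, AB5867 and AB5876), and the high-MHC border cells had a median of 870.5 UMIs (505 to 4035), against 989 in low-MHC border cells, 1214 in cells without border genes and 1267 in microglia-gated cells.

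UMIs of each library and class were added up where both classes had at least 5 cells. Genes outside the 18 gate genes were tested with edgeR 4.0.16 in R 4.3.3 (filterByExpr with a minimum count of 10, TMM, robust quasi-likelihood fit, library block) and Benjamini-Hochberg adjustment, a call being an adjusted p under 0.05. The library block leaves few residual degrees of freedom with 2 libraries. The scripts were tested on simulated data. DESeq2 1.42.0, other normalizations, filters, UMI minimums, gate limits, the fit without the block and leaving out each library were alternatives. Shares carry Clopper-Pearson and levels Poisson 95% intervals. Promoters were RefSeq windows of 250 bases before to 50 after the start; gene positions are from GENCODE on GRCm38.

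The members, the 26 gene lists, and the tests were chosen with earlier results of these data known. Named were the gate and given marker genes, up to 4 members of each list with the most UMIs in the high-MHC border cells, list members past the threshold, up to 10 rises and falls of each comparison, and the 15 genes with most UMIs, leaving out mitochondrial, ribosomal protein and Gm-numbered genes. Psmb8, Mpeg1, Cd52, Rnase4, Fcrls, Fcgr1, Folr2, S100a4, Ccr2, Cd209a, Irgm1, Ciita and the genes named with the dropped microglia limit were chosen after their values were seen, as were other genes outside this rule. Of the well records, the library, the number of cells and the sequencing batch were used. Some genes that the rule names are not reported here.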

Additional observations from a re-analysis of the deposited data

How the results depend on the processing

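The spread of the share of high-MHC border cells between libraries was as large as its mean, so it sets no limit on a fall. Leaving out 1 library gave means of 2.65 to 4.66%, a minimum of 300 or 1000 UMIs 4.50 and 1.74%, a class II limit of 100 or 250 4.46 and 2.97%, and a border limit of 80, which only 11 cells met, 0.733%. The counts of genes called were less stable, and the cause was not tested. Each fit had 2 libraries, except those at a minimum of 300 UMIs, which had 3.

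Against the low-MHC border cells (0 higher, 0 lower), edgeR called 8 higher and 5 lower without TMM factors, which moved the median log2 fold change of all genes from -0.03 to 0.19, 1 and 2 with the library size taken without Gm42418, Gm26917 and mitochondrial genes, 1 and 4 without a gene filter, 3 and 11 at a class II limit of 100, and 5 and 16 without the microglia limit. It called 4 lower at 300 UMIs, 4 at 1000 UMIs, 2 without the library block and 1 at a border limit of 80.

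Against the cells without border genes (4 higher, 0 lower), 7 were higher with DESeq2, without TMM factors and with RLE factors. Higher and lower were 28 and 104 at a minimum count of 5, 15 and 7 at 300 UMIs, 14 and 13 at 1000 UMIs, 22 and 18 without the block, 74 and 103 at a class II limit of 100, 9 and 2 at 250 and 7 and 13 at a border limit of 80, where the 7 held none of the 4 (0 shared), and 158 were lower without a gene filter.

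Against the microglia-gated cells (0 and 0), they were 1 and 2 with DESeq2, 7 and 7 without TMM factors, 1 and 2 without a filter, 1 and 3 at 300 UMIs, 4 and 3 without the block, 15 and 13 at a class II limit of 100 and 5 and 4 at a border limit of 80, and 1 was higher at 1000 UMIs. At a class II limit of 250 only 1 library had enough cells, so no test was run.

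Replicates 1, 2 and 4 did not enter the main fits, so the counts without them are 0 and 0, 4 and 0, and 0 and 0 as before. Without replicate 3 (AB5865) or 5 (AB5876) 1 library remained, which gives a value but no test. That value is a plain log2 ratio within the library, without a fit or TMM factors.

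Some small log2 fold changes turned sign. Against the low-MHC border cells Apoe was 0.0589 without TMM factors and 0.0419 at a border limit of 80. Maf was -0.36 at 300 UMIs, and -0.0156 and -0.646 at a class II limit of 100 and 250. H2-DMa was -0.34 at 1000 UMIs and -0.0907 at a border limit of 80, and F13a1 was 0.11 at a class II limit of 100. Over the settings without 1 replicate, which hold these plain ratios, Apoe was -0.157 to 0.115 and C4b -0.608 to 0.162. Against the cells without border genes H2-DMb1 was 0.00137 at 300 UMIs and -0.651 to 0.0847 over the settings without 1 replicate.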
